A study of Mus musculus with 24 samples.

Results

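The genes described here are the protein-coding genes of mouse build mm10 whose symbol begins with Psma, Psmb, Psmc, Psmd, Psme, Psmf or Psmg followed by a digit. It gave 51 of the 21631 protein-coding genes examined (the autosomes and X), and 10 of the 51 lay on chromosome 11. Of these, 48 encode subunits, activators, an inhibitor or assembly chaperones of the proteasome. The other 3 match by symbol alone: Psmc3ip, a meiotic recombination factor, Psme3ip1, which binds Psme3, and Psme2b, a copy of Psme2.

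The data are chromatin immunoprecipitation sequencing (ChIP-seq) peak lists of mouse leukaemia cells, from 14 libraries that form 7 pairs. The 4 cell lines are named for their fusion, NUP98-NSD1, NUP98-JARID1A, NUP98-HOXD13 or NUP98-HOXA9, and all were grown with IL-3, IL-6 and SCF, so controls and treated cells share the fusion and the cytokines. Each pair sets the solvent DMSO against VTP50469, which blocks the contact of menin with the histone methyltransferase MLL1. MLL1 was mapped in all 4 lines and Menin in NUP98-HOXD13 and NUP98-HOXA9. NUP98-HOXA9 also has a pair for H3K4me3, the trimethyl mark on lysine 4 of histone H3 found at active promoters. Cells received 2 µM VTP50469, but the labels of NUP98-NSD1 give 200 nM. Cells were treated for 96 h, except those of the MLL1 pair of NUP98-HOXA9, for which the labels give 72 h. The labels do not say whether a line is a clone or how its fusion was introduced, and each condition has 1 library, so the values have no replicate error and no test was possible. The number of a library's regions is the only depth the lists show: it ranged from 7113 to 22534 for MLL1 in DMSO and from 1036 to 24950 after VTP50469. The Menin lists of NUP98-HOXA9 held 9050 and 403 regions, those of NUP98-HOXD13 18826 and 16706, and the H3K4me3 lists 9443 and 9567. As a check of the labelled cell type, 8 blood progenitor and myeloid marker genes were examined. In DMSO, 8 in NUP98-HOXA9 (all genes 45.0%), 7 in NUP98-HOXD13 (all genes 45.6%) and 8 in NUP98-JARID1A (all genes 41.2%) had an MLL1 region at a gene end. In NUP98-NSD1 only Ptprc and Cebpa did, 2 of the 8 (all genes 22.1%), and after VTP50469 none. Menin was at 3 of the 8 in NUP98-HOXA9 in DMSO (all genes 27.8%) and at 0 after VTP50469. In NUP98-HOXD13 it was at 7 in both lists (all genes in DMSO 44.9%). H3K4me3 was at 7 in both lists (all genes in DMSO 37.3%). Of 8 marker genes of other cell types, 0 to 2 had a region in any list, and those were Klf1 and Col1a1.

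The proteasome is the large protease that degrades ubiquitin-tagged proteins in the cytosol and the nucleus. Its core is a barrel of alpha and beta rings with the active sites inside, and a regulatory cap of ATPase and non-ATPase subunits recognises, unfolds and feeds in the substrates. Interferon and blood lineages induce an alternative set of catalytic beta subunits, the immunoproteasome, which cuts peptides for presentation on MHC class I. Menin tethers MLL1 to part of its sites, and MLL1 belongs to the enzymes that methylate lysine 4 of histone H3 at promoters.

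Promoters of 7 members are printed because the results turn on them or because they carry the motifs that were searched. They are those of the constitutive and immunoproteasome catalytic subunits with a promoter in the table and of the first members, by MLL1 fold in NUP98-HOXA9 in DMSO, with a TGACNNNGC match outside the catalytic set. Each runs from 250 bases before to 50 bases after the RefSeq start site (GRCm38.p6), and capitals mark TGACNNNGC, the core of the antioxidant response element that Nfe2l1 binds, and CCGGAAG, a core of ETS-factor sites, on either strand. No marked matches overlap one another. Psmb5 and Psmb6 encode constitutive catalytic subunits, and Psmb8, Psmb9 and Psmb10 their immunoproteasome counterparts, while Psmc6 is an ATPase of the cap and Psme4 an activator.
Psmb5, chr14:54617946-54618245, minus strand: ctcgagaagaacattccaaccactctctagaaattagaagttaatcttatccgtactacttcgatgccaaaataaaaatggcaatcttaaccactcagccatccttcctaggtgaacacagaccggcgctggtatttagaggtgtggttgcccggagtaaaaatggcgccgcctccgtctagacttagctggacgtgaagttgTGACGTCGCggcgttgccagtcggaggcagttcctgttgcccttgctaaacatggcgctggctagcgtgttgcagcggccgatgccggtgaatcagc
Psmb6, chr11:70525107-70525406, plus strand: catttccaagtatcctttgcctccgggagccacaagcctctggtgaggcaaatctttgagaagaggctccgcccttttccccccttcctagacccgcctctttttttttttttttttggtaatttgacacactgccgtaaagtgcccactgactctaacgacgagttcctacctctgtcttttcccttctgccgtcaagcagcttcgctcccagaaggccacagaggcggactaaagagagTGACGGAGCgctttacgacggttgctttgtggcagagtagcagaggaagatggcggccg
Psmb8, chr17:34197945-34198244, plus strand: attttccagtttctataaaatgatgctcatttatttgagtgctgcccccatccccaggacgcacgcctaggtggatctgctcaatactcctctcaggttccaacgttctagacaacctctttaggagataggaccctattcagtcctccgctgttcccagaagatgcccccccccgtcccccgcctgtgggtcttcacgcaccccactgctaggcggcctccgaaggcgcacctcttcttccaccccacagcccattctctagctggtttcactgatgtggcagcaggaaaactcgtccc
Psmb9, chr17:34187281-34187580, minus strand: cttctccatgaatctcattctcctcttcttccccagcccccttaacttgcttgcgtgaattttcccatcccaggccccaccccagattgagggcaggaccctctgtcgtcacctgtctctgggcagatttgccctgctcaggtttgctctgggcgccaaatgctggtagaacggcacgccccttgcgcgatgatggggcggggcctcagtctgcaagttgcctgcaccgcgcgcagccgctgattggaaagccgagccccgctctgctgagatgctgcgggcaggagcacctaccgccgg
Psmb10, chr8:105938343-105938642, minus strand: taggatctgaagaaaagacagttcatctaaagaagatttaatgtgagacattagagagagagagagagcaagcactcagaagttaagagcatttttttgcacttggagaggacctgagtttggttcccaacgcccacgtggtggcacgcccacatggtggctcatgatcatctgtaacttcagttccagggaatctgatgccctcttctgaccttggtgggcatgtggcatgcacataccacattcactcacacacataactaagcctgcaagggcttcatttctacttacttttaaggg
Psmc6, chr14:45329574-45329873, plus strand: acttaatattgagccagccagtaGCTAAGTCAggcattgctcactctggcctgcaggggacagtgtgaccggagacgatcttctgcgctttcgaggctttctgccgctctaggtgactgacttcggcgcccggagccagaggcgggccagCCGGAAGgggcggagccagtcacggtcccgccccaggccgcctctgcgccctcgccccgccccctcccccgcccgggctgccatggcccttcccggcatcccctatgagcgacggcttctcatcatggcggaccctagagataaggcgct
Psme4, chr11:30771525-30771824, plus strand: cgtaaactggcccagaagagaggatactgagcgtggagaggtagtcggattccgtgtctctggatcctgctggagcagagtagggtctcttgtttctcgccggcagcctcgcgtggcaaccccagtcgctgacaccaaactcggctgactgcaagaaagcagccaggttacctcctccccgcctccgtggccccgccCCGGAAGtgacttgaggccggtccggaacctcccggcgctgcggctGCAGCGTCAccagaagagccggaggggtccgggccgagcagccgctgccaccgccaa

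Across the 43 members with a promoter in the RefSeq table, 5 motifs were searched on both strands. TGACNNNGC was in 6 of the 43 (14%), against 13.2% of all 17274 promoters of the same length. CCGGAAG was in 14 (32.6%, all promoters 12%), and the interferon-stimulated response element core, a pair of GAAA runs with any 2 bases between them, in 5 (11.6%, all promoters 3.43%). CCAAT was in 15 (34.9%, all promoters 39.4%) and GGGCGG in 23 (53.5%, all promoters 46.9%). None of the printed immunoproteasome promoters held any of the first 3 of these motifs within its 300 bases. Member promoters held a median of 19 CG dinucleotides, against 14 in all promoters, at a median GC content of 57.3% and 56.3%. A match describes these letters and is not a measured binding site.

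Most proteasome genes had MLL1 at a gene end in the control cells. A gene end here is the window of 1 kb either side of either annotated end of a gene, since the gene table gives no strand, and it is called bound when it shares at least 1 bp with a region. In DMSO, MLL1 was at 45 of the 51 members in NUP98-HOXA9 (all genes 45.0%), 45 in NUP98-HOXD13 (all genes 45.6%), 43 in NUP98-JARID1A (all genes 41.2%) and 25 in NUP98-NSD1 (all genes 22.1%). Menin was at 32 members in NUP98-HOXA9 (all genes 27.8%) and 45 in NUP98-HOXD13 (all genes 44.9%), and H3K4me3 was at 43 (all genes 37.3%). In percent, members were bound at 88.2, 88.2, 84.3 and 49.0 for MLL1, 62.7 and 88.2 for Menin and 84.3 for H3K4me3, above all genes in each of the 7 DMSO lists. The set of all genes includes genes silent in these cells, and expression was not measured in these lists. Another gene's end lay within 1 kb of an end of 21 members, so a region there cannot be assigned to the member alone.

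Core, cap and chaperone genes were mostly bound in the DMSO lists, least evenly in the 2 shortest. There MLL1 in NUP98-NSD1 was at 5 of 7 alpha, 3 of 7 constitutive beta, 2 of 6 ATPase, 3 of 11 other cap and 4 of 7 chaperone genes, and Menin in NUP98-HOXA9 at 5, 6, 3, 8 and 3 of them. These differences were not tested. In all 4 MLL1 lists of DMSO cells 25 members had a region at an end. These are all the members bound in NUP98-NSD1, the shortest of the 4 lists. The share of all genes bound in all 4 is not given here. Psma2 and Psma4 of the alpha ring, the immunoproteasome gene Psmb9 and the activator gene Psme2 had one in 13 of the 14 lists, the exception being Menin in NUP98-HOXA9 after VTP50469. No list had a base in a region within 2 kb of Psma8, the testis form of an alpha subunit, Psmb11, the thymus form of a catalytic subunit, or Psme2b. Psmg3, a chaperone of core assembly, had no MLL1 region in any of the 8 lists, yet H3K4me3 covered 912 bp in DMSO and 815 bp after VTP50469. Psmd10, a chaperone of cap assembly, had a region at an end in 5 lists, all of MLL1. Psmc3ip, the meiotic factor, had MLL1 at an end in all 6 lists of NUP98-HOXA9, NUP98-HOXD13 and NUP98-JARID1A and no H3K4me3 region.

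Psma6 and Psmf1 had no region at an annotated end in any list but were bound at a start site inside the gene. Psma6, an alpha ring gene (chromosome 12, 55384222 to 55418459), has a second RefSeq start at 55398825. An MLL1 region lay over that start in all 8 MLL1 lists, with summits from 55398631 to 55398773. Its fold enrichment, which is the authors' own ratio of a region and is used here to describe regions within a list, was 54.4 in NUP98-HOXA9 in DMSO, above the highest fold at the ends of the other members there, 35.7. Psmf1, the gene of an inhibitor protein (chromosome 2, 151716062 to 151744199), starts at 151741310 in the promoter table, and its MLL1 region in NUP98-HOXA9 in DMSO had its summit at 151741315.

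**Figure D1:**
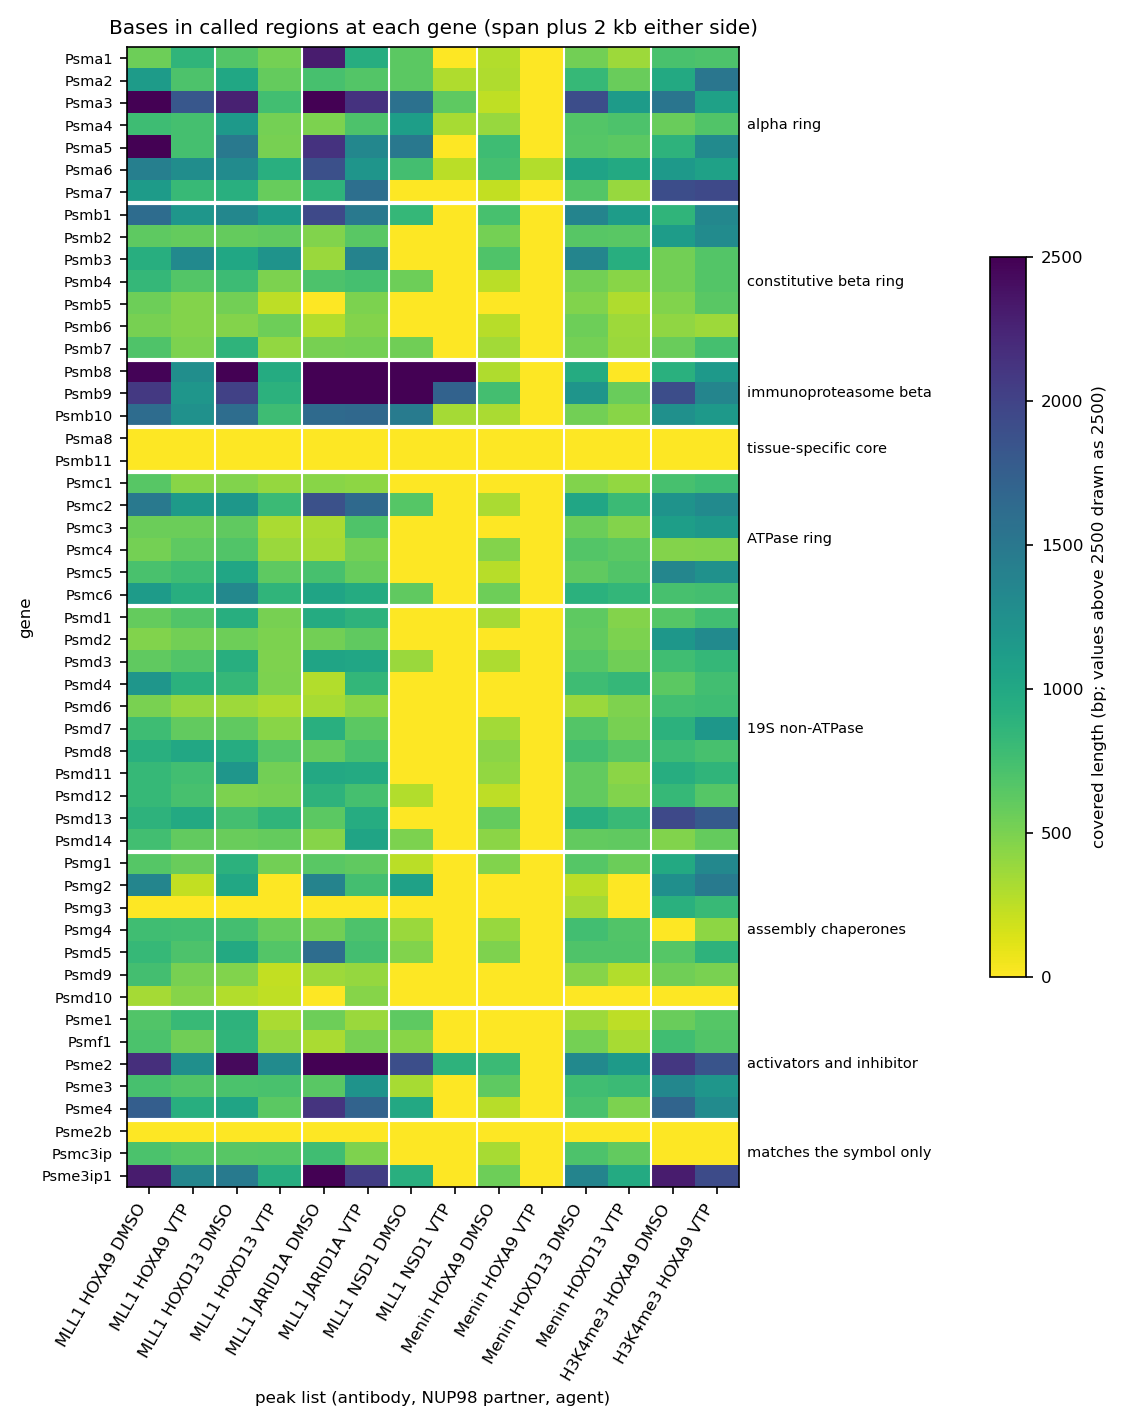
Heat map of covered length, the bases in regions from 2 kb before to 2 kb after a gene, in bp, for the 51 genes (rows, grouped by role) in the 14 peak lists (columns); values above 2500 bp are drawn as 2500. Psma8, Psmb11 and Psme2b are at 0 in each list, and the Menin list of NUP98-HOXA9 after VTP50469 is at 0 for all genes but Psma6 (288 bp).

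MLL1 and Menin summits sat close to the start sites of proteasome genes, and H3K4me3 summits lay inside the genes. In NUP98-HOXA9 in DMSO, the summit of the strongest MLL1 region of a member was at a median of -44.0 bp from the nearest RefSeq start (negative is upstream), and 37 of the 40 members with a region and a start site were within 500 bp. In NUP98-HOXD13 the median was -41.0 bp for MLL1 and -53.5 bp for Menin. In the other lines the MLL1 median in DMSO was downstream, at 16.5 bp in NUP98-JARID1A (21 of 38 summits downstream) and 23.0 bp in NUP98-NSD1 (14 of 23), and after VTP50469 it was -23.5 and -33.5 bp. For H3K4me3 the median was 284 bp into the gene, and 34 of 38 summits were downstream of the start. After VTP50469 the medians in NUP98-HOXA9 were -53.5 bp for MLL1 and 264 bp for H3K4me3. Psmb10 was an exception: its MLL1 summit in DMSO lay 1258 bp inside the annotated gene in NUP98-HOXA9 and 1273 bp inside in NUP98-HOXD13. In NUP98-JARID1A and NUP98-NSD1 it lay 577 and 428 bp inside. The strongest MLL1 region can also belong to a neighbour. For Psmb8 in DMSO it was at the Tap2 start, 6330, 6339 and 6303 bp away in NUP98-HOXA9, NUP98-JARID1A and NUP98-NSD1. For Psmc6 in NUP98-JARID1A in DMSO it lay past the gene, 21272 bp from the start. The printed Psmb10 promoter, with 3 CG dinucleotides, overlapped a region in 6 of the 14 lists, while that of Psmb9, with 17, did in 13.

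**Figure D2:**
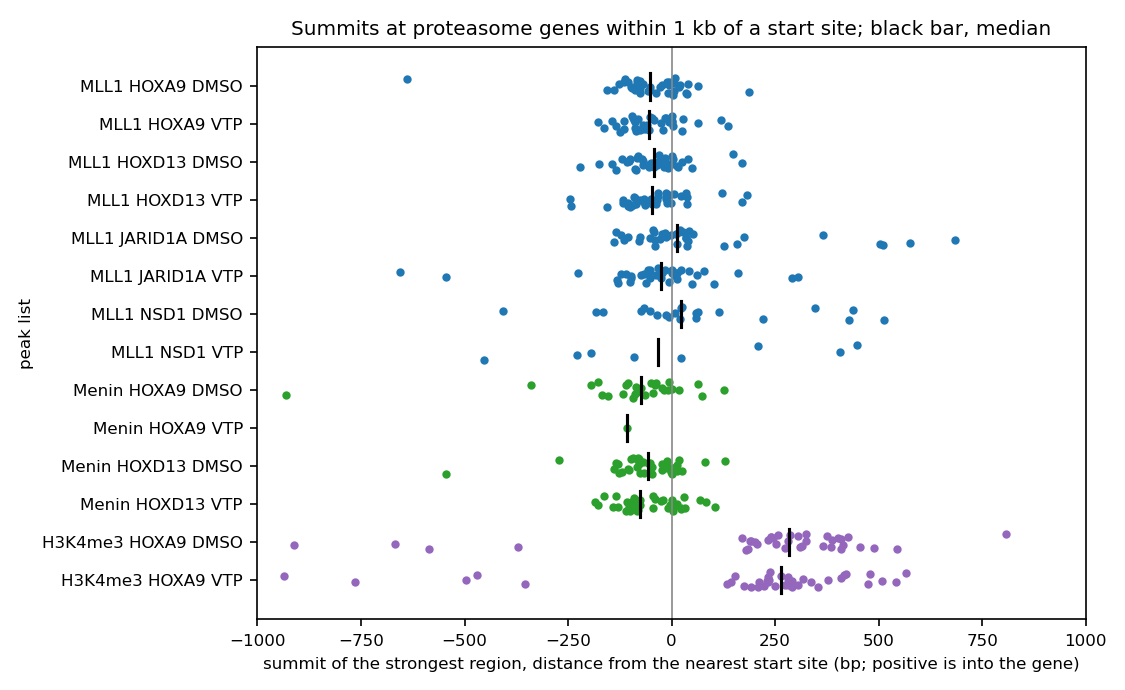
Distance in bp of the summit of each member's strongest region from the nearest start site, for summits within 1 kb, in the 14 peak lists; points are genes and the black bar is the median of the points drawn. MLL1 (blue) and Menin (green) points gather around the start, and H3K4me3 (purple) points lie mostly to its right, inside the gene.

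Menin and MLL1 shared most proteasome gene ends in DMSO. In NUP98-HOXD13, 44 of the 45 MLL1 members also had Menin (97.8%, all genes 94.5%), and 44 of the 45 Menin members had MLL1 (97.8%, all genes 95.9%). In NUP98-HOXA9, 32 of the 45 MLL1 members had Menin (71.1%, all genes 61.5%), and all 32 Menin members had MLL1 (100%, all genes 99.5%). H3K4me3 was at 42 of those 45 MLL1 members, and 30 members had all 3. Over all genes, 7764 of the 9726 with MLL1 had H3K4me3, and 5082 had all 3. The Menin list of NUP98-HOXA9 is shorter than its MLL1 list, and the cells of those 2 lists were grown for 96 and 72 h. In both lines a number in the sample titles differs between the MLL1 and the Menin pair.

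In 3 of the 4 lines MLL1 stayed called at proteasome gene ends after VTP50469. A gene end counts as lost when it had a region in DMSO and has none after VTP50469. In NUP98-HOXA9 0 of 45 members were lost (95% Wilson interval 0 to 7.87%; all genes 3.93%) and 0 were gained (all genes 3.33%). In NUP98-HOXD13 1 of 45 was lost (2.22%, interval 0.393 to 11.6%; all genes 12.2%) and none gained (all genes 1.04%). The lost member was Psmg2, a chaperone of core assembly whose region had a fold of 8.22 in DMSO. In NUP98-JARID1A 0 of 43 were lost (interval 0 to 8.20%; all genes 1.01%), and 2 of the 8 unbound members were gained (all genes 11.3%), Psmb5 and Psmd10. These intervals cover counting error over genes and nothing of the spread between libraries, so they are no test of members against all genes. The shares of all genes also depend on list length. With the lists of NUP98-HOXD13 cut to equal length, 1 of 45 members was lost, against 7.36% of all genes.

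Regions over proteasome genes were shorter after VTP50469 in NUP98-HOXA9 and NUP98-HOXD13, by about as much as over all genes. Covered length is the number of bases in regions from 2 kb before to 2 kb after a gene. Over the members MLL1 covered 50305 bp in NUP98-HOXA9 with DMSO and 37609 bp with VTP50469, which is 74.8% (all genes 76.6%), and the median ratio per gene was 0.847 (all genes 0.897). In NUP98-HOXD13 it covered 46762 and 28186 bp, or 60.3% (all genes 58.3%), with a median ratio of 0.632 (all genes 0.667). The length was shorter at 36 of 47 members in NUP98-HOXA9 (all genes 63.0%) and at 39 of 47 in NUP98-HOXD13 (all genes 89.7%). At most 50% of the DMSO length was left at 2 of 47 members in NUP98-HOXA9 (4.26%, all genes 12.8%) and at 13 of 47 in NUP98-HOXD13 (27.7%, all genes 30.4%). It is a length, not a level of binding, and depends on how much was called in a library.

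The alpha ring and the immunoproteasome genes kept the smallest share of their MLL1 length in both lines, and per gene they had the greatest length in DMSO. In NUP98-HOXA9 the 7 alpha genes kept 61.8% and the 3 immunoproteasome genes 59.7%, against 90.2% for the 7 constitutive beta genes, 88.2% for the 6 ATPase genes and 94.1% for the 11 other cap genes. In NUP98-HOXD13 the alpha genes had 8807 and 4407 bp and the immunoproteasome genes 6450 and 2634 bp (40.8%), while the other 3 groups kept 83.2%, 63.8% and 72.0%. Assembly chaperones kept 68.7% and 51.3%, and activators and the inhibitor 70.1% and 56.7%. Members with at least 2 kb in DMSO kept 49.9% in NUP98-HOXA9 (6 genes; 54.7% over the 1632 genes of that length) and 40.9% in NUP98-HOXD13 (4 genes; 42.7% over 1216). Members under 1 kb kept 97.3% (all genes 101%) and 70.8% (all genes 69.4%). Between these lengths they kept 67.5% (10 genes; all genes 79.8%) and 58.7% (14 genes; all genes 59.9%). The bins use the DMSO lengths of the same comparison, so the percentages describe these libraries and carry no test. The largest single differences in NUP98-HOXA9 were at Psma5 (chromosome 3, 108256926 to 108279952; 2621 and 733 bp), Psma3 (chromosome 12, 70969283 to 70995877; 3607 and 1824 bp) and Psmb8 (2472 and 1266 bp). In NUP98-HOXD13 they were at Psmb8 (2827 and 964 bp), Psma3 (2268 and 752 bp) and the activator gene Psme2 (2433 and 1296 bp). Psmb3, a non-catalytic beta gene, went the other way in both lines, with 928 and 1315 bp in NUP98-HOXA9 and 1010 and 1212 bp in NUP98-HOXD13, and its end lies within 1 kb of an end of Pcgf2. Within the gene alone, without the 2 kb flanks, Psmb3 had 182 and 170 bp in NUP98-HOXD13, so the rise there lay in the flanks. Other members among the 3 with the largest rise were Psma1 (550 and 868 bp) and Psme1 (682 and 815 bp) in NUP98-HOXA9, and Psmd13 (748 and 869 bp) and Psmb6 (459 and 549 bp) in NUP98-HOXD13. Without flanks Psme1 had 322 and 237 bp and Psmb6 213 and 197 bp, which turns both rises into falls.

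**Figure D3:**
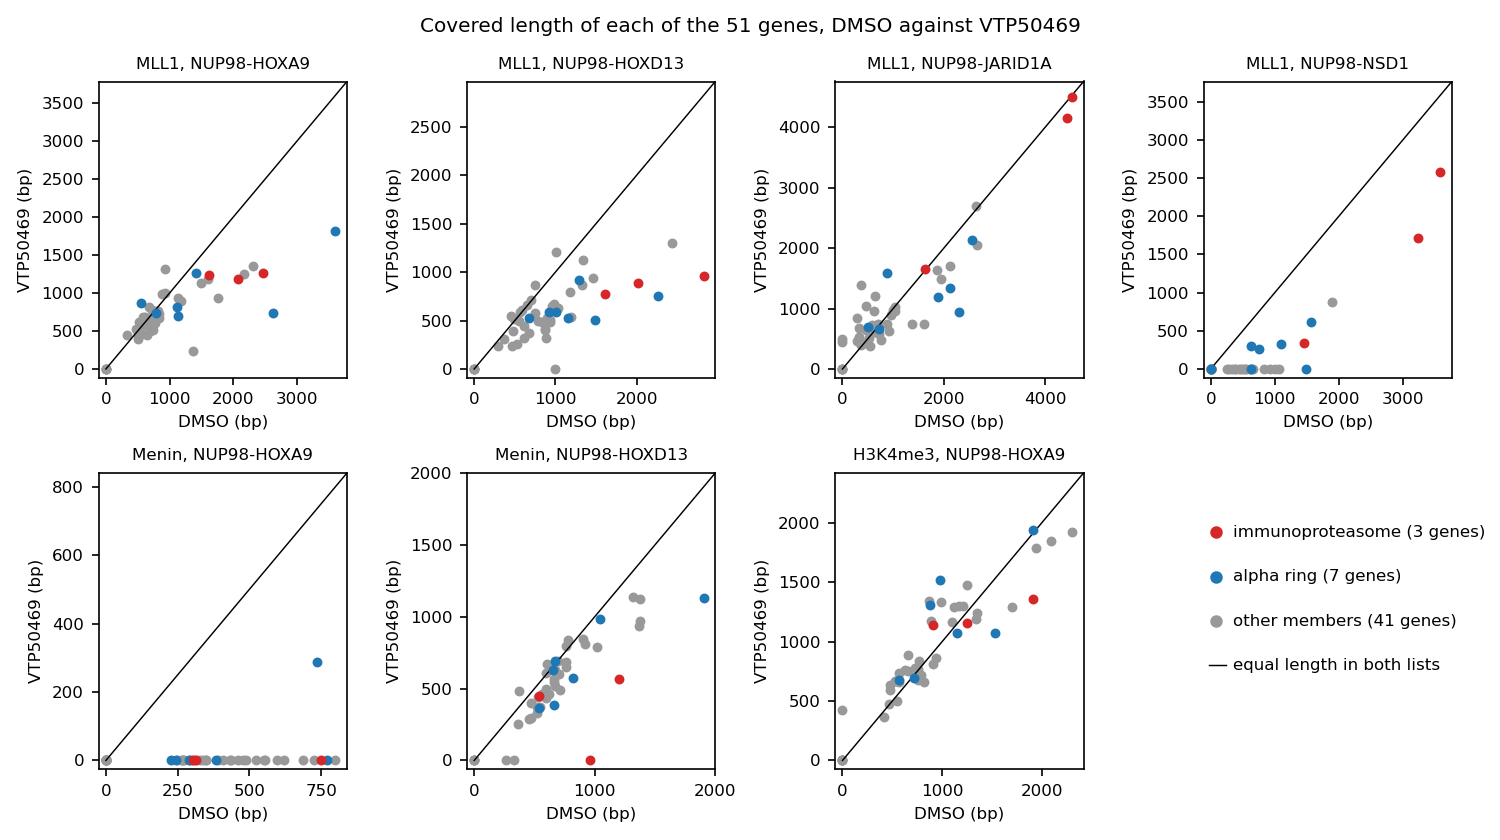
Covered length in bp of each of the 51 genes in DMSO (x axis) and after VTP50469 (y axis) for the 7 pairs; red points are the 3 immunoproteasome genes, blue the 7 alpha ring genes, grey the other 41, and the line marks equal length. Points of long DMSO length lie below the line in NUP98-HOXA9 and NUP98-HOXD13, and nearly all points lie on or near 0 after VTP50469 for MLL1 in NUP98-NSD1 and Menin in NUP98-HOXA9.

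In NUP98-JARID1A the summed MLL1 length of the proteasome genes stayed near its DMSO value, while that of all genes was greater after VTP50469. The treated list of this line is the longer one, 24950 regions against 15765, and over all genes the covered length after VTP50469 was 131% of DMSO. Members had 52472 and 50976 bp, or 97.1%, with a median ratio of 0.982 against 1.29 for all genes. The length was shorter at 24 of 45 members (all genes 27.4%) and longer at 21, and at most 50% was left at 2 of the 45 (all genes 2.51%). In bins of DMSO length the members also stood below all genes: 126% against 162% under 1 kb, 76.1% against 116% from 1 to 2 kb, and 83.5% against 92.1% at 2 kb or more. The role groups differed: the constitutive beta genes had 134% of their DMSO length, the cap genes outside the ATPase ring 116% and the ATPase genes 102%, against 78.0% for the alpha ring and 80.5% for the chaperones. The immunoproteasome genes had 97.3% and the activators and inhibitor 104%. With the treated list cut to the 15765 regions of highest −log10 q, the members' ratio was 0.899 and that of all genes 1.08. The largest falls in length were at Psma1 (2309 and 947 bp), the chaperone gene Psmd5 (1610 and 748 bp) and Psma5 (2132 and 1342 bp), and the largest rises at Psmb3 (375 and 1384 bp), Psma7 (873 and 1588 bp) and the deubiquitinase gene Psmd14 (455 and 1039 bp). Psmb9 and Psmb8 were the longest members in both lists, with 4533 and 4503 bp, and 4425 and 4151 bp. Whether the difference between members and all genes exceeds the spread between libraries cannot be told with 1 library a condition.

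In NUP98-NSD1 most proteasome gene ends lost MLL1, and 3 of the 6 members that kept it were the immunoproteasome genes. Of 25 bound members 19 were lost (76.0%, interval 56.6 to 88.5%; all genes 86.2%) and none was gained (all genes 0.712%). Psma2, Psma4, Psmb8, Psmb9, Psmb10 and Psme2 kept a region. That of Psmb10 was weak after VTP50469, with a −log10 q of 3.31. With a −log10 q of at least 5 required in both lists 15 of 19 bound members were lost, Psmb10 among them. The share of all genes at this limit is not given here. The members' length went from 26210 to 7023 bp, or 26.8%, against 9.40% for all genes. The immunoproteasome genes kept 56.1% (8280 and 4642 bp), the alpha ring 24.4% (6166 and 1502 bp) and the activators and inhibitor 20.5% (4291 and 879 bp), and the other groups of members 0. Without Psmb8, Psmb9 and Psmb10 the members kept 13.3% (17930 and 2381 bp), a subset chosen after the values were seen. The length was shorter at all 27 members with any in DMSO (all genes 99.0%), and at most 50% was left at 25 of them (all genes 94.1%). In DMSO the 6 kept members had 627 to 3587 bp (median 1678) and the 19 lost ones 260 to 1564 bp (median 615). Their DMSO folds were 5.15 to 36.1 (median 12.4) and 4.76 to 11.1 (median 6.34). Psma5, with 1495 bp in DMSO, had none after VTP50469. In bins of DMSO length, members under 1 kb kept 5.18% (19 genes; all genes 7.08%), and those from 1 to 2 kb 25.1% (6 genes; all genes 9.29%). The 2 members with at least 2 kb, Psmb8 and Psmb9, which lie on either side of Tap1, kept 63.1% (9.55% over the 347 genes of that length). This line had the smaller dose, and its treated list has 1036 regions against 7113. Cut to its 1036 regions of highest −log10 q, the DMSO list has 6 bound members. Of these 1 was lost, Psmg2 (all genes 65.8%), and Psma2 was gained, with a ratio of members' length of 0.541 (all genes 0.376).

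**Figure D4:**
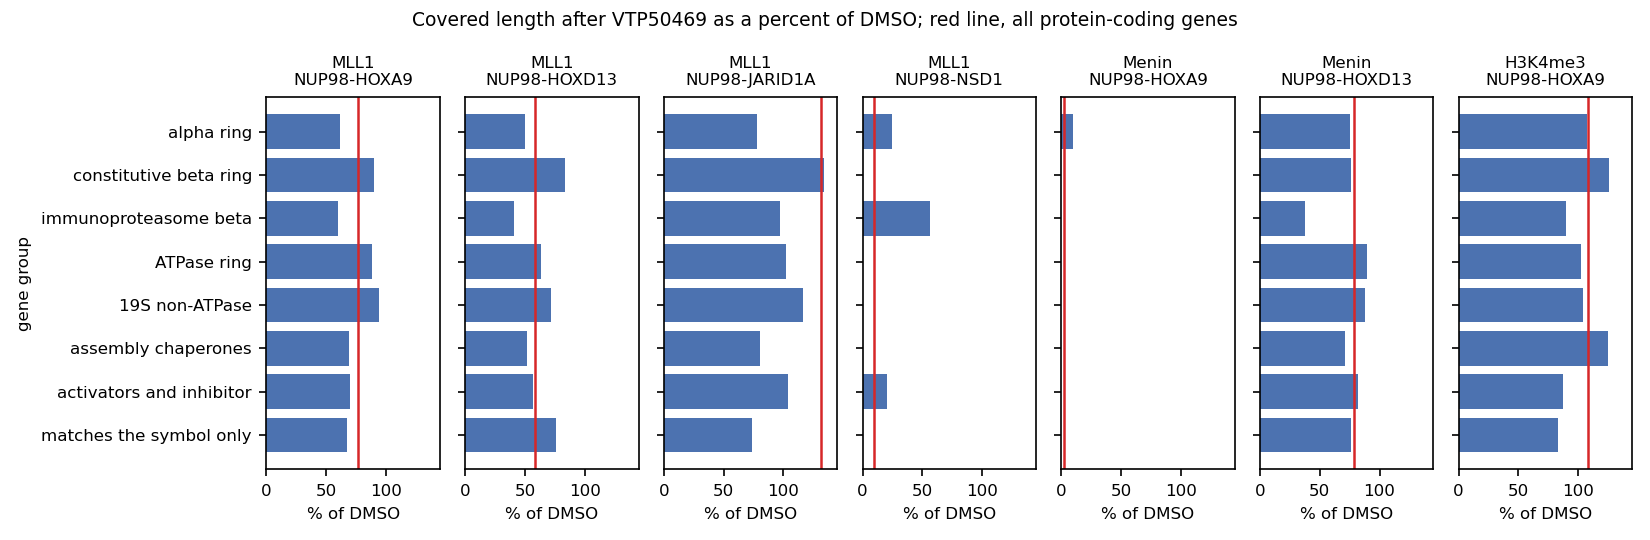
Covered length after VTP50469 as a percent of that in DMSO for the role groups of proteasome genes (bars) and for all protein-coding genes (red line), in the 7 pairs. For MLL1 in NUP98-NSD1 the immunoproteasome bar stands at 56.1% against 9.40% for all genes, and for Menin in NUP98-HOXA9 the alpha ring alone is above 0, at 9.79%.

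The immunoproteasome genes Psmb8 and Psmb9 lie in the MHC region of chromosome 17 with the peptide transporter genes Tap1 and Tap2, and long MLL1 regions covered this cluster. Psmb9 (34182030 to 34187330) and Tap1 (34187556 to 34197225) have neighbouring starts that share a region, and Psmb8 (34198195 to 34201454) begins just past the end of Tap1. MLL1 covered 2083 bp at Psmb9 with DMSO and 1184 bp with VTP50469 in NUP98-HOXA9, 2018 and 891 bp in NUP98-HOXD13, 4533 and 4503 bp in NUP98-JARID1A, and 3235 and 1717 bp in NUP98-NSD1. Psmb8 had 2472 and 1266 bp, 2827 and 964 bp, 4425 and 4151 bp, and 3587 and 2587 bp in the same order. Both lengths were shorter after VTP50469 in NUP98-HOXA9, NUP98-HOXD13 and NUP98-NSD1. In NUP98-JARID1A the regions themselves were wider after VTP50469, at 5054 and 5783 bp over Psmb9 (fold 52.3 and 80.0) and 3384 and 4080 bp over Psmb8 (fold 53.5 and 66.6). The covered length of Psmb9 counts these regions only up to 2 kb from the gene. That of Psmb8 includes in DMSO 2 short regions and a longer stretch of a region at Tap2. One short region (34200019 to 34200331) lay mostly within the treated region over Psmb8, which ended at 34200289. The other (34200886 to 34201208) was not called after VTP50469. In NUP98-NSD1 in DMSO the region over Psmb8 (34196176 to 34199649) had a fold of 36.1 and a width of 3474 bp, the highest fold at a member's end in that list. After VTP50469 the region over Psmb8 ran from 34196259 to 34198845 and that over Psmb9 and Tap1 from 34186650 to 34188366, with folds of 12.6 and 13.2. Tap1 had 4196 and 2450 bp in NUP98-HOXA9, 4694 and 1855 bp in NUP98-HOXD13, 7174 and 8071 bp in NUP98-JARID1A and 6621 and 4304 bp in NUP98-NSD1. A further MLL1 region lay within 1 kb of the Tap2 start in all 8 MLL1 lists, from 34203323 to 34206393 in NUP98-NSD1 with DMSO and from 34204243 to 34205248 with VTP50469. It reached to within 2 kb of Psmb8, and so into its covered length, in the DMSO lists of NUP98-NSD1, NUP98-JARID1A and NUP98-HOXA9 and in the treated list of NUP98-JARID1A. Menin covered less: at Psmb8 302 and 0 bp in NUP98-HOXA9 and 963 and 0 bp in NUP98-HOXD13, and at Psmb9 748 and 0 bp, and 1200 and 567 bp. H3K4me3 covered 913 and 1145 bp at Psmb8 and 1910 and 1364 bp at Psmb9. Since Tap1 shares these regions, its MLL1 and that of its neighbours cannot be told apart.

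**Figure D5:**
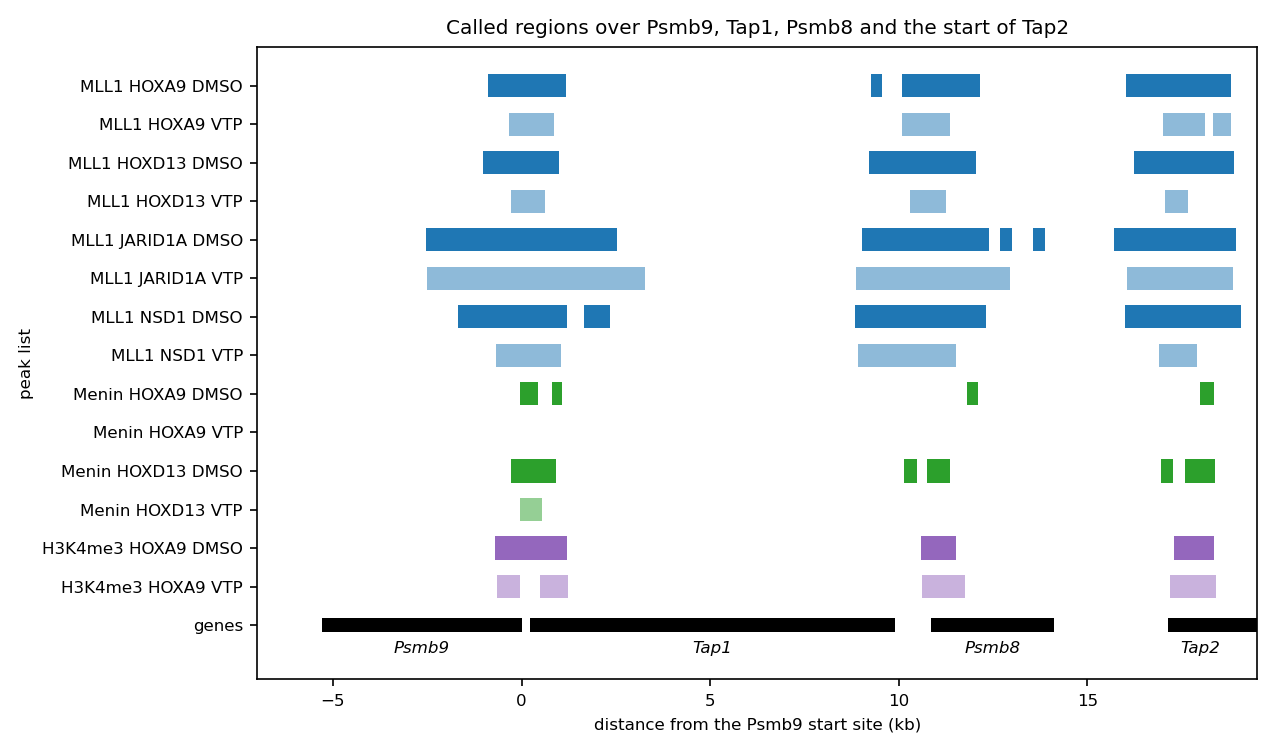
Called regions (bars) in the 14 peak lists over Psmb9, Tap1, Psmb8 and the start of Tap2, against distance in kb from the Psmb9 start; dark bars are DMSO, light bars VTP50469, and black bars the genes. MLL1 bars over Psmb8, Psmb9 and the Tap2 start are present in the treated list of NUP98-NSD1, and the Menin row of NUP98-HOXA9 after VTP50469 is empty.

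The third immunoproteasome gene, Psmb10 (chromosome 8, 105935728 to 105938392), lies apart from the MHC region. It had 1621 and 1239 bp of MLL1 in NUP98-HOXA9, 1605 and 779 bp in NUP98-HOXD13, 1634 and 1654 bp in NUP98-JARID1A and 1458 and 338 bp in NUP98-NSD1, where its ratio of 0.232 was below those of Psmb8 (0.721) and Psmb9 (0.531). The constitutive catalytic genes had shorter regions. Psmb5 (chromosome 14, 54614120 to 54617995) had 550 and 466 bp, 531 and 253 bp, 0 and 492 bp, and none in NUP98-NSD1. Psmb6 (chromosome 11, 70525324 to 70527858) had 512 and 465 bp, 459 and 549 bp, 284 and 467 bp, and likewise none in NUP98-NSD1. Psmb7 (chromosome 2, 38588046 to 38643952) had 687 and 497 bp, 877 and 410 bp, 515 and 518 bp, and 542 and 0 bp. In the DMSO list of every line each immunoproteasome gene had a greater MLL1 length than each of these 3 counterparts.

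The activator genes Psme1 and Psme2, whose products form a ring that caps the core and is induced by interferon, lie near each other on chromosome 14. Psme2 (55587440 to 55591101), which has an end within 1 kb of one of Rnf31, had 2162 and 1253 bp of MLL1 in NUP98-HOXA9, 2433 and 1296 bp in NUP98-HOXD13, 2641 and 2695 bp in NUP98-JARID1A and 1899 and 879 bp in NUP98-NSD1. Psme1 (55578494 to 55581527) had 682 and 815 bp, 882 and 317 bp, 548 and 376 bp, and 622 and 0 bp. In each of the 8 MLL1 lists Psme2 had the greater length of the pair. Psme4, the gene of the activator PA200, had 1754 and 936 bp in NUP98-HOXA9, 1038 and 629 bp in NUP98-HOXD13, 2124 and 1706 bp in NUP98-JARID1A and 996 and 0 bp in NUP98-NSD1. Psme3, the gene of a nuclear activator, had 728 and 676 bp, 704 and 714 bp, 635 and 1216 bp, and 330 and 0 bp in the same order.

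Menin was missing from the proteasome genes of NUP98-HOXA9 after VTP50469 and mostly present in NUP98-HOXD13. In NUP98-HOXA9 all 32 bound members were lost (100%, interval 89.3 to 100%; all genes 96.6%) and none was gained (all genes 0.0256%). The members' length went from 15755 to 288 bp, or 1.83% (all genes 2.57%), and the 288 bp are a region of fold 7.42 at the inner start of Psma6. It was shorter at all 36 members with any in DMSO (all genes 99.9%), and at most 50% was left at each of them (all genes 98.7%). Psme2 (800 bp), Psma5 (772 bp) and Psmb9 (748 bp) were the longest members in DMSO. The treated list holds 403 regions in all, and with the DMSO list cut to 403 regions no member end was bound in either list. In NUP98-HOXD13, 4 of 45 members were lost (8.89%, interval 3.51 to 20.7%; all genes 8.74%): Psmb8, Psmb10, Psmg2 and Psmg3. None was gained (all genes 1.11%). Psmb10 was not emptied, with 536 and 448 bp, since its region lies inside the gene and no longer reached into the window. The length went from 34793 to 26891 bp, or 77.3% (all genes 79.0%), at a median ratio of 0.817 (all genes 0.833). It was shorter at 40 of 47 members (all genes 82.6%), and at most 50% was left at 4 (all genes 13.5%). The largest differences were at Psmb8 (963 and 0 bp), Psma3 (1905 and 1129 bp) and Psmb9 (1200 and 567 bp), and the immunoproteasome genes kept 37.6%, against 70.8 to 89.8% in the other groups of members. The largest rises, at Psmd6 (375 and 484 bp), Psmc5 (607 and 674 bp) and Psmd4 (775 and 839 bp), were of 109 bp or less, and without flanks Psmd6 had 245 and 212 bp.

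H3K4me3 stayed at proteasome genes in NUP98-HOXA9. Of 43 bound members 1 was lost, Psma3 (2.33%, interval 0.412 to 12.1%; all genes 3.95%), and 1 gained, Psmg4 (0 and 428 bp; all genes 4.64%). The covered length was 44899 bp with DMSO and 46641 bp with VTP50469, or 104% (all genes 108%). It was shorter at 18 of 45 members (all genes 43.4%), and no member had at most 50% of its DMSO length (all genes 5.68%). Longest in DMSO were Psme3ip1 (2306 bp), Psme2 (2097 bp) and Psmd13 (1945 bp). The largest falls were at Psmb9 (1910 and 1364 bp), Psma3 (1531 and 1073 bp) and Psme4 (1699 and 1293 bp), and the largest rises at Psma2 (978 and 1520 bp) and Psmb1 (868 and 1340 bp). Psma3 counts as lost through its gene end, and all 1073 bp lay within the gene, where it had 908 bp in DMSO, so its fall was in the flanks.

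Genes that work with the proteasome were compared from lists chosen by function. Of 19 genes for ubiquitin receptors, shuttle factors, deubiquitinases, assembly and regulation, 15 had MLL1 at a gene end in NUP98-NSD1 in DMSO (all genes 22.1%). In each other line 17 did (all genes 41.2% to 45.6%). Of these bound genes, 12 were lost in NUP98-NSD1 (all genes 86.2%), 1 in NUP98-HOXD13 (all genes 12.2%) and 0 in NUP98-HOXA9 and NUP98-JARID1A (all genes 3.93% and 1.01%). Of 7 genes of MHC class I presentation and its regulation, 7 had MLL1 in each line in DMSO, beside the same shares of all genes. MLL1 was lost at 1 in NUP98-NSD1, 1 in NUP98-HOXD13 and 0 in both other lines. In NUP98-NSD1 these 7 genes kept 44.8% of their MLL1 length (17147 and 7688 bp), against 9.40% over all genes. They include Tap1 and Tap2, which lie beside Psmb8 and Psmb9. Menin was lost at 9 of 11 genes of the first list and 4 of 4 of the second in NUP98-HOXA9 (all genes 96.6%), and at 2 of 17 and 3 of 6 in NUP98-HOXD13 (all genes 8.74%). Usp14, a deubiquitinase of the proteasome, was lost in 3 pairs: MLL1 had 394 and 0 bp in NUP98-HOXD13 and 365 and 0 bp in NUP98-NSD1, and Menin 337 and 0 bp in NUP98-HOXD13. The ubiquitin receptor gene Adrm1 (MLL1 in NUP98-NSD1 622 and 0 bp, Menin in NUP98-HOXA9 492 and 0 bp) and the deubiquitinase gene Uchl5 (1373 and 0 bp, 363 and 0 bp) were lost in those 2 pairs. So were Ubqln4 (450 and 380 bp in DMSO), Akirin2 (316 and 344 bp), Ubb (304 and 400 bp) and Irf1 (707 and 261 bp). Ddi2, whose product activates Nfe2l1, was lost for MLL1 in NUP98-NSD1 (414 and 0 bp) and at its end for Menin in NUP98-HOXD13 (1092 and 754 bp). Tap2 was lost for Menin in both lines (362 and 0 bp, 1630 and 411 bp), and Nlrc5, a transactivator of MHC class I genes, for both antibodies in NUP98-HOXD13 (678 and 0 bp, 549 and 291 bp). Uba1, the ubiquitin-activating enzyme gene, was gained at its end for Menin in NUP98-HOXD13 (387 and 236 bp) and for H3K4me3 (589 and 984 bp). Both already covered bases of Uba1 in DMSO, and the Menin length was shorter after VTP50469.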

How the data were processed

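Peak lists of 14 ChIP-seq libraries were used, 1 per condition, called per library per the labels. The other 10 of the 24 samples are input chromatin, and no list of theirs was used here. The submitters' processing notes name the build mm10 and the tools MACS2, bedtools, SAMtools, Picard 2.9.4, STAR 2.7.5a and bcl2fastq 2.20.0.422. Their settings and the control input of each list were not given in the sources used here. The deposited lists give for each region a score, which was not used, a fold enrichment (ratio), −log10 p and q values and a summit, all as the authors wrote them. The weakest deposited −log10 q was 2.00 to 2.07 in the 14 lists, so a region absent from a list may lie below this limit. Read depth is unknown.

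Genes and promoters came from RefSeq tables of GRCm38.p6. Overlaps and covered lengths were computed with Python 3.11.15, numpy 2.4.6 and pandas 2.3.3, Wilson intervals with scipy 1.17.1 and figures with matplotlib 3.10.9. The overlap and length code was tested on simulated regions: 100 of 100 removed gene ends and 50 of 50 added ones were called. In each pair the DMSO library was compared with the VTP50469 library by counts, lengths and median ratios beside those of all genes. A number in the sample titles is the same within each pair and differs between the MLL1 pairs of the 4 lines, so line and that number cannot be told apart. It also differs between the MLL1 pair and the Menin or H3K4me3 pairs of a line, so a comparison of MLL1 with those cannot be told apart from it either.

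Members and gene lists were chosen with earlier results of these data known. Members lost or gained and the 3 longest members in DMSO are named only in part. Named with values were the catalytic subunits, the 3 largest falls and rises per pair, members without a region at an end, and pathway genes lost or gained in at least 2 pairs. One pathway gene that met this rule is not reported here. Paaf1 was on the pathway list but matched no protein-coding gene of the table. A stricter q, lists of equal length, other windows and overlaps, and 5 alternatives chosen after seeing the data were tried.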

Additional observations from a re-analysis of the deposited data

How the results depend on the processing

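No paired analysis was possible because each condition has 1 library, and for the same reason no replicate could be left out. Of 185 values recomputed under alternatives, 160 kept their direction and stayed within 1.5 times the reported value or at the same count, 20 moved further and 5 turned direction. The 160 include the members' length ratios with shared bases counted once. These could not differ from the main values, since no members overlap even with their flanks. All 5 are lengths of single members over gene spans without flanks: the ratio was 0.736 at Psme1 (MLL1 in NUP98-HOXA9), 0.934 at Psmb3 and 0.925 at Psmb6 (MLL1 in NUP98-HOXD13) and 0.865 at Psmd6 (Menin in NUP98-HOXD13), each a rise with flanks, and 1.18 at Psma3 (H3K4me3), a fall with flanks. Cutting the longer list to the length of the shorter changed most. Members lost went from 0 to 3 of 43 for MLL1 in NUP98-JARID1A (Psmd4, Psmd9 and Psma3, all genes 10.4%). For MLL1 in NUP98-NSD1 they went from 19 of 25 to 1 of 6 (all genes 65.8%). For Menin in NUP98-HOXD13 they went from 4 of 45 to 2 of 43 (all genes 6.34%). For Menin in NUP98-HOXA9 they went from 32 of 32 to 0. There the cut DMSO list had no bound member, so none could be lost and the count says nothing about loss. The length ratio went from 0.268 to 0.541 for MLL1 in NUP98-NSD1 and from 0.0183 to 0.565 for Menin in NUP98-HOXA9, where fewer regions were compared. Requiring a −log10 q of at least 5 gave 3 members lost for MLL1 in NUP98-HOXD13 instead of 1. Start sites alone, chosen after seeing the data, gave 0 there. Psmg2, the 1 member lost in the main count, has no start site in the promoter table, so that count could not include it. For H3K4me3 start sites alone gave 0 members lost instead of 1, as did a window of 500 bp. The ratio was 0.133 for MLL1 in NUP98-NSD1 without the immunoproteasome genes, also chosen after seeing the data, and 0.0417 for Menin in NUP98-HOXA9 over gene spans without flanks. Peak lists give no read depth, so a region below the calling limit and one without enrichment cannot be told apart.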
